A study of Homo sapiens with 4 samples.

Results

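The lysosomal cathepsins CTSA, CTSB, CTSC, CTSD, CTSH, CTSL, CTSS and CTSZ and the cystatins CST3 and CSTB were examined in U937 cells, a long-established leukemia cell line of human origin and monocytic character. The 10 genes were taken by their symbols, matched to the Ensembl identifiers of the deposited table, and 9 of them had a row among its 17656 genes and passed the filter on low values. CTSL was not analysed here. By the labels, 2 libraries are sh-ZNF217, a knockdown of the zinc finger protein ZNF217, and 2 are NC, with no treatment. The labels name a hairpin, whereas the study's text speaks of a Cas9 knockout where it compares RNA-seq libraries of this line, so which construct the cells carried is not settled here. For its knockout cells the study describes a control with a nontargeting guide RNA, so whether the NC cells carried a construct is not settled either. The headings of the deposited columns carry the marks D4 in both groups and S1 after ZNF, which the labels do not explain. The labels give no time of harvest and do not state whether replicates were separate cultures. The p-values therefore reflect the spread among these 4 libraries, which may be technical.

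Cathepsins are the proteases of the lysosome, made as inactive precursors and activated by cleavage in the acid compartment. Most are cysteine proteases of the papain family (CTSB, CTSC, CTSH, CTSL, CTSS, CTSZ), CTSD is an aspartic protease and CTSA a serine carboxypeptidase. Cystatins bind the active site of cysteine cathepsins and block it, CST3 as a secreted protein and CSTB in the cytosol, and neither is an inhibitor of CTSD. Monocytes and macrophages are known for a high content of these enzymes, which break down engulfed material and prepare antigens.

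The level was measured in TPM, a gene's part of all transcripts in a library, corrected for transcript length and scaled to a fixed total. TPM keeps no count of reads, so the depth behind each value is unknown. The 4 columns summed to between 998932 and 999282 TPM, and 14421 and 14402 genes reached 1 TPM in the sh-ZNF217-labelled libraries, against 14101 and 14080 in NC. The transcript named in the labels did not mark the groups. ZNF217 was at 35.8 and 35.0 TPM in the sh-ZNF217-labelled libraries and at 36.1 and 36.7 TPM in NC (log2 fold change -0.04, SE 0.07, limma adjusted p = 0.74), so every direction below rests on the label alone. Among defining genes of the line the myeloid factor SPI1 stood at 316 to 356 TPM and CD4 at 276 to 326 TPM over the 4 libraries, while MPO, a granule enzyme, stayed below 1 TPM in each.

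Of the 9 genes tested, CTSS, CTSD and CTSA rose in the sh-ZNF217-labelled libraries, 0 fell and 6 did not pass. A gene was called at a limma adjusted p below 0.05 over all 14582 tested genes together with an absolute log2 fold change above 0.5, and by this rule 6.26% of all tested genes were higher and 2.46% lower. A further 4 genes, CTSB, CTSC, CST3 and CSTB, had an adjusted p below 0.05 and stopped short of the fold minimum, although with plain empirical Bayes all 4 were above 0.05 (0.0628 to 0.132), and CTSZ and CTSH missed both. The median log2 fold change of the 9 genes was 0.45, against 0.02 over all tested genes. Both sh-ZNF217-labelled libraries lay above both NC libraries for 8 genes, as they did for 33.5% of all tested genes, and below them for CTSH, as for 28.6% of all tested genes. In bulk RNA, a change in the number of cells that make a transcript and one in its amount per cell cannot be told apart.

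**Figure D1:**
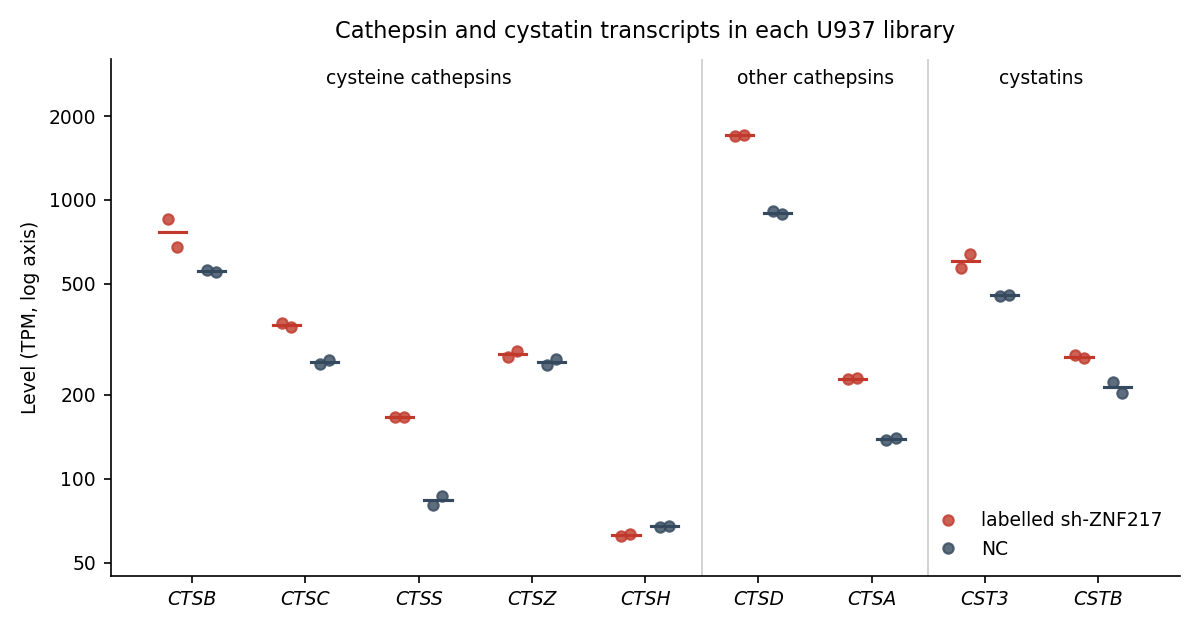
Level in TPM on a log axis of 9 genes, each point being a library and each bar the group mean, for the sh-ZNF217-labelled libraries (red, left of each pair) and NC (dark, right). CTSD is the highest in all 4 libraries, CTSS is at 167 against 80.4 and 87.1 TPM, and CTSB spreads between 855 and 680 TPM in the sh-ZNF217-labelled libraries.

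CTSD and CTSA, the 2 cathepsins that are not cysteine proteases, both rose. CTSD (ENSG00000117984, minus strand of chromosome 11, 1752752 to 1764573, hg38) encodes the main aspartic protease of the lysosome. It was at 1693 and 1715 TPM in the sh-ZNF217-labelled libraries and at 913 and 887 TPM in NC, a ratio of means of 1.89. Its rank among all genes by level was 61 and 60 in the sh-ZNF217-labelled libraries, against 147 and 144 in NC. On the log2 scale CTSD was higher by 0.92 (SE 0.04, 95% interval 0.82 to 1.03, limma adjusted p = 0.000973), with replicates that differed by 0.02 and 0.04 on the same scale. CTSA (ENSG00000064601, plus strand of chromosome 20, 45890144 to 45898949) encodes the protective protein that holds beta-galactosidase and neuraminidase together in the lysosome. It was at 228 and 230.3 TPM in the sh-ZNF217-labelled libraries and at 138 and 140.1 TPM in NC, so the groups stood far apart and each pair of replicates lay close. The log2 fold change of CTSA was 0.71 (SE 0.05, 95% interval 0.59 to 0.84, limma adjusted p = 0.00238).

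Exons of both genes overlap those of neighbours, and the use of strand in counting is not given in the sources used here. CTSD shares exon bases on its own strand with the lncRNA ENSG00000229512, which was at 11.5 and 8.15 TPM in the sh-ZNF217-labelled libraries and at 2.39 and 2.61 TPM in NC and was called higher (log2 fold change 1.61, limma adjusted p = 0.00978). It also overlaps PRADX on the other strand, whose highest value was 2.54 TPM. Both were far below CTSD. Another overlapping gene, ENSG00000250644 on the same strand, was not analysed here. CTSA overlaps NEURL2 on the other strand, at 0.668 TPM or below, and ENSG00000271984, not analysed here. It also overlaps PLTP, the phospholipid transfer protein, on the other strand, which was not called, with 87.3 and 92.0 TPM in the sh-ZNF217-labelled libraries against 115 and 109 TPM in NC.

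Among the cysteine cathepsins CTSS alone was called. CTSS (ENSG00000163131, minus strand of chromosome 1, 150730079 to 150765957), a protease of antigen-presenting cells that stays active at neutral pH and cleaves the invariant chain of MHC class II, was at 167.2 and 166.6 TPM in the sh-ZNF217-labelled libraries and at 80.4 and 87.1 TPM in NC. Its ratio of means, 1.99, and its log2 fold change, 0.99 (SE 0.06, 95% interval 0.83 to 1.14, limma adjusted p = 0.00203), were the highest of the 9 genes, and 410 of the 14582 tested genes had a larger log2 fold change. CTSS was one of the scarcer cathepsins in NC and stayed below CTSB, CTSC, CTSZ, CTSD and CTSA in both groups.

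CTSC and CTSB lay at similar fold changes and differed in how well the replicates agreed. CTSC (ENSG00000109861, minus strand of chromosome 11, 88265069 to 88359684) encodes dipeptidyl peptidase I, which removes the activation dipeptide of granule serine proteases. It was at 363 and 352 TPM in the sh-ZNF217-labelled libraries and at 258 and 266 TPM in NC, a log2 fold change of 0.45 (SE 0.05, 95% interval 0.32 to 0.57, limma adjusted p = 0.00735) that did not reach 0.5 under any of 12 alternative settings, which gave 0.41 to 0.48. CTSB (ENSG00000164733, minus strand of chromosome 8, 11842524 to 11869533), a cathepsin that can cut both within chains and at their ends, was at 855 and 680 TPM in the sh-ZNF217-labelled libraries and at 561 and 553 TPM in NC. The difference of 0.33 between its sh-ZNF217-labelled libraries was met or exceeded by 2.66% of the 3455 genes with a mean of at least 50 TPM. Its log2 fold change was 0.45 (SE 0.11, 95% interval 0.19 to 0.72, limma adjusted p = 0.0437). Without sh-ZNF217 replicate 2 it was 0.62 and called higher (limma adjusted p = 0.0337), and without sh-ZNF217 replicate 1 it was 0.29 (limma adjusted p = 0.0766), so the call of CTSB turned on a single library. Without NC replicate 1 or 2 its log2 fold change was 0.46 or 0.44 (limma adjusted p = 0.163 and 0.166).

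CTSZ and CTSH showed no change that passed the test. CTSZ (ENSG00000101160, minus strand of chromosome 20, 58985686 to 59008238), a carboxypeptidase, was at 274 and 286 TPM in the sh-ZNF217-labelled libraries and at 256 and 269 TPM in NC (log2 fold change 0.09, 95% interval -0.04 to 0.23, limma adjusted p = 0.282). The gap between the nearest libraries of the 2 groups was smaller than the gap within either group. CTSZ shares exon bases with NELFCD on the other strand, which lay between 44.6 and 48.8 TPM in all 4 libraries. CTSH (ENSG00000103811, minus strand of chromosome 15, 78921058 to 78949574), an aminopeptidase, was the scarcest member, at 62.4 and 63.6 TPM in the sh-ZNF217-labelled libraries and 67.1 and 68.1 TPM in NC. Its log2 fold change was -0.10 (95% interval -0.25 to 0.05, limma adjusted p = 0.301), and the interval reached neither bound of the 0.5 minimum, as was also the case for CTSZ. The ratio of CTSS to CTSH was 2.68 and 2.62 in the sh-ZNF217-labelled libraries and 1.20 and 1.28 in NC.

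**Figure D2:**
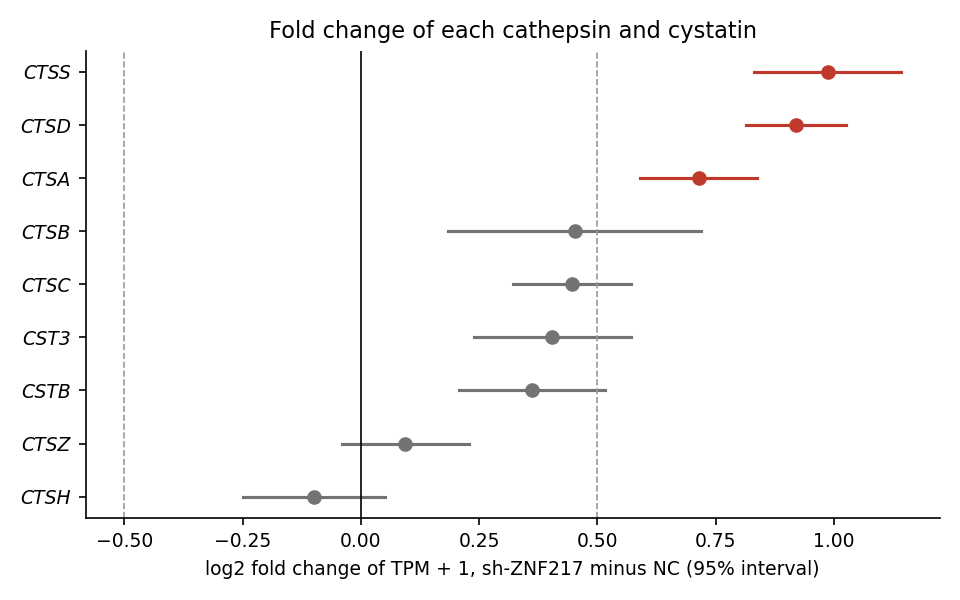
Log2 fold change of TPM + 1, sh-ZNF217-labelled libraries minus NC, for 9 genes in order of size, with the 95% interval from limma as a line. Red marks the 3 called genes, CTSS, CTSD and CTSA, whose intervals lie wholly above the dashed line at 0.5, and CTSB has the widest interval, 0.19 to 0.72.

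Both cystatins were higher in the sh-ZNF217-labelled libraries without reaching the fold minimum. CST3 (ENSG00000101439, minus strand of chromosome 20, 23626706 to 23638473), which encodes cystatin C, was at 569 and 640.2 TPM in the sh-ZNF217-labelled libraries and at 455 and 457 TPM in NC. The NC libraries were nearly equal and the others stood 0.17 apart on the log2 scale. Its log2 fold change was 0.41 (SE 0.07, 95% interval 0.24 to 0.57, limma adjusted p = 0.0175). CSTB (ENSG00000160213, minus strand of chromosome 21, 43772511 to 43776330), which encodes cystatin B, was at 278 and 272 TPM in the sh-ZNF217-labelled libraries and at 223 and 204 TPM in NC. Here the NC libraries were the more scattered pair, and CSTB differed by 0.36 on the log2 scale (SE 0.06, 95% interval 0.21 to 0.52, limma adjusted p = 0.0198). CST3 was the more abundant cystatin throughout, at 2.05 and 2.36 times CSTB in the sh-ZNF217-labelled libraries and 2.03 and 2.24 times in NC.

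Since TPM is divided by length, levels of different genes could be set in order. In the sh-ZNF217-labelled libraries the mean ran from CTSD (1704 ± 15.4 TPM, SD, n = 2) through CTSB (767 ± 124), CST3 (605 ± 50.4), CTSC (357 ± 8.23), CTSZ (280.2 ± 8.87), CSTB (275 ± 4.14), CTSA (229 ± 1.87) and CTSS (167 ± 0.411) to CTSH (63.0 ± 0.88). In NC the order was CTSD (900.0 ± 17.8 TPM, SD, n = 2), CTSB (557 ± 6.04), CST3 (456 ± 1.39), CTSZ (263 ± 8.72), CTSC (262 ± 6.0), CSTB (214 ± 14.0), CTSA (139 ± 1.27), CTSS (83.8 ± 4.74) and CTSH (67.6 ± 0.654). The neighbours CTSZ and CTSC overlapped in NC, and CTSZ and CSTB overlapped in the sh-ZNF217-labelled libraries, while the other neighbours did not. CTSC thus stood above CTSZ in both sh-ZNF217-labelled libraries, and level with it in NC.

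The 7 measured cathepsins together made up 0.365% and 0.350% of all TPM in the sh-ZNF217-labelled libraries, against 0.228% and 0.227% in NC. Their sum was 3643 and 3493 TPM in the sh-ZNF217-labelled libraries and 2274 and 2270.4 TPM in NC, a ratio of means of 1.57. CTSD alone supplied 46.5% and 49.1% of that sum in the sh-ZNF217-labelled libraries and 40.1% and 39.1% in NC. The 2 cystatins summed to 846 and 912 TPM in the sh-ZNF217-labelled libraries and to 678 and 660.2 TPM in NC, a ratio of 1.31, close to the ratio of 1.33 for the 5 cysteine cathepsins. The ratio of cystatins to cysteine cathepsins was 0.492 and 0.589 in the sh-ZNF217-labelled libraries and 0.554 and 0.531 in NC, so the groups overlapped. Both CTSB and CST3 differed between the sh-ZNF217-labelled libraries, on opposite sides of that ratio. The sum of cysteine cathepsins without CTSB was 867 and 868 TPM in the sh-ZNF217-labelled libraries, against 662 and 690.2 TPM in NC. Against all 7 cathepsins the ratio was 0.232 and 0.261 in the sh-ZNF217-labelled libraries and 0.298 and 0.291 in NC. These sums leave out CTSL and the cystatins CSTA and CST7, and no test was run on them.

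**Figure D3:**
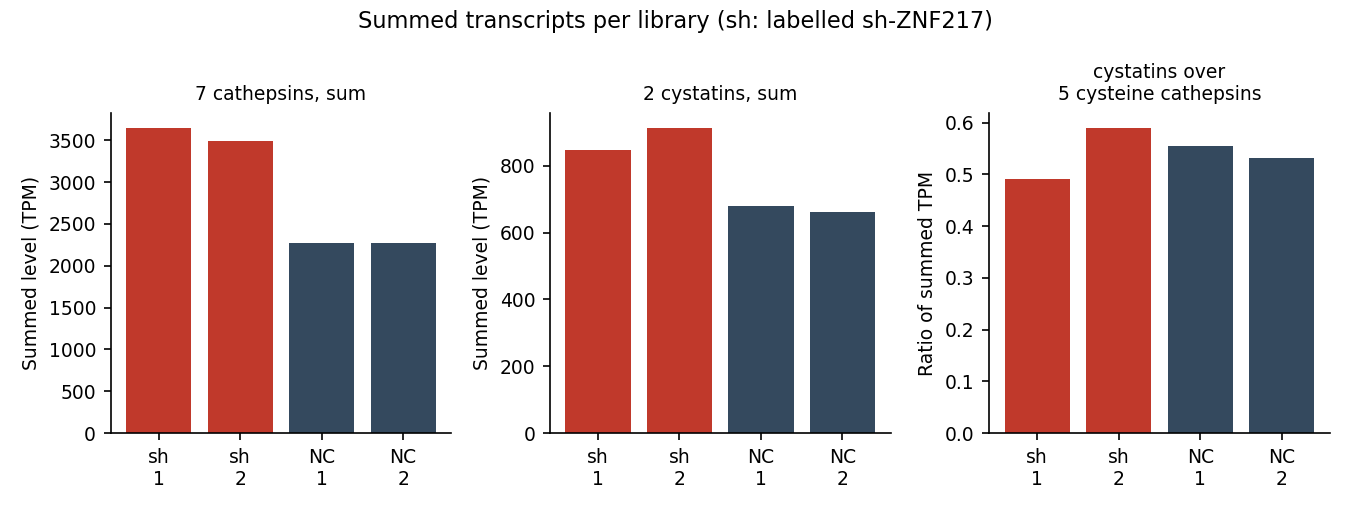
Bars for each library, labelled sh-ZNF217 (sh, red) and NC (dark), of the summed TPM of 7 cathepsins, the summed TPM of 2 cystatins and the ratio of the cystatins to 5 cysteine cathepsins. The cathepsin sum is 3643 and 3493 against 2274 and 2270.4 TPM, while the ratio, 0.492 and 0.589 against 0.554 and 0.531, overlaps between the groups.

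Promoters of the members were also read, as a planned description without a test. Lysosomal genes are known for an element with an E-box at its centre that binds TFEB, TFE3 and MITF. The RefSeq windows of GRCh38.p14, from 250 bases before to 50 bases after a gene's start, were searched on both strands for TCACGTGA, the centre of that element, for the E-box CACGTG it contains, for TCATGTGA, and for GAGGAAGT, a site of the myeloid factor PU.1. Windows were given for CTSA, CTSC, CTSD, CTSH, CTSZ and CST3. CTSB, CTSS and CSTB had no window and were not searched. TCACGTGA stood in the window of CTSA and in 0.98% of all 35116 windows. CACGTG stood in the windows of CTSA and CTSD and in 7.26% of all windows. Neither TCATGTGA (0.999% of all windows) nor GAGGAAGT (2.59%) stood in any of the 6, and none of the 4 words stood in those of CTSC, CTSH, CTSZ or CST3. For each of the 6 windows the RefSeq start lies inside the outer bounds of the GENCODE gene given above. Position 1 is that start, on which the window was built, and -1 is the base before it. In these terms TCACGTGA of CTSA began at -26, the other CACGTG of CTSA at -42 and that of CTSD at -47. The windows of the 2 members with a match and that of CTSH, which had none, are printed 5′ to 3′ on the strand of the gene. Matches are in capitals. CTSA is chr20:45891085-45891384 (plus strand), CTSD chr11:1763878-1764177 (minus strand) and CTSH chr15:78944997-78945296 (minus strand).
CTSA: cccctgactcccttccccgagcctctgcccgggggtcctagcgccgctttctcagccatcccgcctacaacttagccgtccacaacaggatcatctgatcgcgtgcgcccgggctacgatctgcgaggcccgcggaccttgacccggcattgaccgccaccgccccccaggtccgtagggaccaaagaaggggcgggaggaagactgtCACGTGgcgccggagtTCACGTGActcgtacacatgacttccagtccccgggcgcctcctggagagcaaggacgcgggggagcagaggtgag
CTSD: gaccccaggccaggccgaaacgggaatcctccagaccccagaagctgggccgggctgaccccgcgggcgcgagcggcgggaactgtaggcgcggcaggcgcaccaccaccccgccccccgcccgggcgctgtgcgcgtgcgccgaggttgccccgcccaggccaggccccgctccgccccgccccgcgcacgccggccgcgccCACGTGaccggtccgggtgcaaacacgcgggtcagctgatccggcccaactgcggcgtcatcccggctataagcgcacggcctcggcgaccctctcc
CTSH: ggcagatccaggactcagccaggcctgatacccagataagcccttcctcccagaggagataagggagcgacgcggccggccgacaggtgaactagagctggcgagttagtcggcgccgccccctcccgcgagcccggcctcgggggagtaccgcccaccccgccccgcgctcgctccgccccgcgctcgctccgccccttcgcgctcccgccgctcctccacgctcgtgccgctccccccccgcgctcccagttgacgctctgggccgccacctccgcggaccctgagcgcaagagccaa
In the first 2 windows the words lie within 50 bases before the RefSeq start. A match is a word in this window and not a measured site, and its part in the levels was not tested.

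Cathepsin genes beyond the members went both ways. CTSO, a widely made papain-type cathepsin, was low and rose, with 7.45 and 6.98 TPM in the sh-ZNF217-labelled libraries against 2.52 and 2.99 TPM in NC (log2 fold change 1.13, limma adjusted p = 0.0141). That call was lost without sh-ZNF217 replicate 1 (limma adjusted p = 0.0761) or replicate 2 (0.0668). CTSG, which despite its name is a serine protease of the azurophil granule, fell to 290.1 and 292 TPM in the sh-ZNF217-labelled libraries, against 458 and 469 TPM in NC (log2 fold change -0.67, limma adjusted p = 0.00238). Of 7 further cathepsin genes 4 had a row and 3 were tested, and the third, CTSK, was at 2.84 and 4.76 TPM in the sh-ZNF217-labelled libraries and 1.34 and 1.69 TPM in NC (limma adjusted p = 0.0736). Among 16 other inhibitors 4 were tested and 0 were called. All 4 had a limma adjusted p below 0.05 and stopped short of the fold minimum. CSTA, the cytosolic cystatin A, was at 244 and 217 TPM in the sh-ZNF217-labelled libraries and 167 and 165 TPM in NC. Its log2 fold change was 0.47 (limma adjusted p = 0.0136), and 0.55 without sh-ZNF217 replicate 2. With totals that left out mitochondrially encoded genes it was 0.505, and CSTA was called higher (limma adjusted p = 0.0102). The other 3, the cystatin CST7 and the serpins SERPINB1 and SERPINB6, named after their values were seen, were lower in the sh-ZNF217-labelled libraries. Their log2 fold changes were -0.28, -0.30 and -0.43 (limma adjusted p = 0.0417, 0.0425 and 0.0101).

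Cathepsins reach the lysosome on mannose 6-phosphate receptors or with the help of partner proteins, and genes of that route were followed. Of 18 tested genes for sorting and activation 3 rose, 0 fell and 15 did not pass, with a median log2 fold change of 0.15. GRN, which encodes progranulin, a lysosomal glycoprotein whose granulins are released by proteases, was at 651 and 678 TPM in the sh-ZNF217-labelled libraries and 352 and 338 TPM in NC (log2 fold change 0.94, limma adjusted p = 0.00126). PSAP, the precursor of the saposins, was at 713 and 717 TPM in the sh-ZNF217-labelled libraries and 398 and 389 TPM in NC (0.86). IGF2R, the large mannose 6-phosphate receptor, was at 221 and 224 TPM in the sh-ZNF217-labelled libraries and 127 and 130.4 TPM in NC (0.79), whereas M6PR, the small receptor, named after its value was seen, lay between 238 and 243 TPM in all 4 libraries. These 3 risers had both sh-ZNF217-labelled libraries above both NC libraries, as did 33.5% of all tested genes. Of 5 partners and relatives of CTSA, CPVL, a serine carboxypeptidase of macrophages, rose to 135 and 154 TPM in the sh-ZNF217-labelled libraries, against 77.1 and 93.7 TPM in NC (limma adjusted p = 0.0139), and lost its call without sh-ZNF217 replicate 1 (0.0552) or 2 (0.0721). NEU1, the neuraminidase held by CTSA and named here after its values were seen, was at 3.63 and 15.9 TPM in the sh-ZNF217-labelled libraries and 9.80 and 6.11 TPM in NC, a wider spread within a group than between groups. Other lysosomal peptidases had 3 of 4 tested genes higher. They were TPP1, the tripeptidyl peptidase, with 167 and 166 TPM in the sh-ZNF217-labelled libraries against 92.7 and 99.5 TPM in NC, the carboxypeptidase CPQ (log2 fold change 0.93) and the carboxypeptidase PRCP (0.70). PRCP lost its call without sh-ZNF217 replicate 1 (limma adjusted p = 0.0655), and plain empirical Bayes ended the calls of CPVL (0.0691) and PRCP (0.0594).

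Regulators of the lysosomal gene programme were read next, both transcription factors of the MiT/TFE family and the nutrient-signalling proteins that set where those factors reside in the cell. Of 9 tested genes, comprising 4 MiT/TFE factors, folliculin, its partner FNIP2, 2 Rag GTPases and ZKSCAN3, a repressor of lysosomal genes, 7 rose, 0 fell and 2 did not pass (median log2 fold change 0.61). TFEC, a member of the MiT/TFE family in myeloid cells, was at 46.1 and 45.8 TPM in the sh-ZNF217-labelled libraries and 16.9 and 17.5 TPM in NC (log2 fold change 1.37, limma adjusted p = 0.00143). TFE3 was at 33.9 and 34.1 TPM in the sh-ZNF217-labelled libraries and 19.4 and 19.2 TPM in NC (0.79). TFEB, named after its values were seen, was at 22.3 and 21.9 TPM in the sh-ZNF217-labelled libraries and 19.7 and 16.6 TPM in NC, with no call (0.27, limma adjusted p = 0.148). ZKSCAN3, also named after its values were seen, had no call (0.61, limma adjusted p = 0.247). FNIP2, which with folliculin restrains MiT/TFE factors, rose by a log2 of 0.96 and RRAGC, a Rag GTPase, by 0.57. Their part in the levels of the cathepsins was not tested.

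CTSC and CTSS have known substrates whose own transcripts could be read. CTSC activates serine proteases of the azurophil granule, and all 4 tested genes of that family fell while CTSC did not. PRTN3, proteinase 3, was at 69.2 and 73.5 TPM in the sh-ZNF217-labelled libraries and 186 and 191 TPM in NC (log2 fold change -1.39, limma adjusted p = 0.00077). ELANE, neutrophil elastase, was at 22.1 and 22.5 TPM in the sh-ZNF217-labelled libraries and 42.4 and 36.8 TPM in NC (-0.80), and AZU1, the inactive relative azurocidin, was at 35.8 and 28.4 TPM in the sh-ZNF217-labelled libraries and 50.2 and 59.1 TPM in NC (-0.75). CTSG was the fourth. ELANE lost its call without sh-ZNF217 replicate 1 (limma adjusted p = 0.0537) or 2 (0.0517), and AZU1 without sh-ZNF217 replicate 2 (0.0741) or NC replicate 2 (0.0594) and with plain empirical Bayes (0.0802). CTSS cleaves the invariant chain CD74, which was at 345 and 337 TPM in the sh-ZNF217-labelled libraries and 409 and 395 TPM in NC (log2 fold change -0.24, limma adjusted p = 0.0307, named after its values were seen). IFI30, the lysosomal thiol reductase of antigen processing, was the called gene of that pathway, with 375 and 348 TPM in the sh-ZNF217-labelled libraries against 168 and 167 TPM in NC (1.10, limma adjusted p = 0.00126). The other 3 of 4 tested genes, HLA-DRB1 among them, did not pass. HLA-DRB1, named after its values were seen, was at 41.5 and 40.1 TPM in the sh-ZNF217-labelled libraries and 35.8 and 34.5 TPM in NC. HLA-DRA, which was not tested, was at 1.14 TPM or below in each library.

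**Figure D4:**
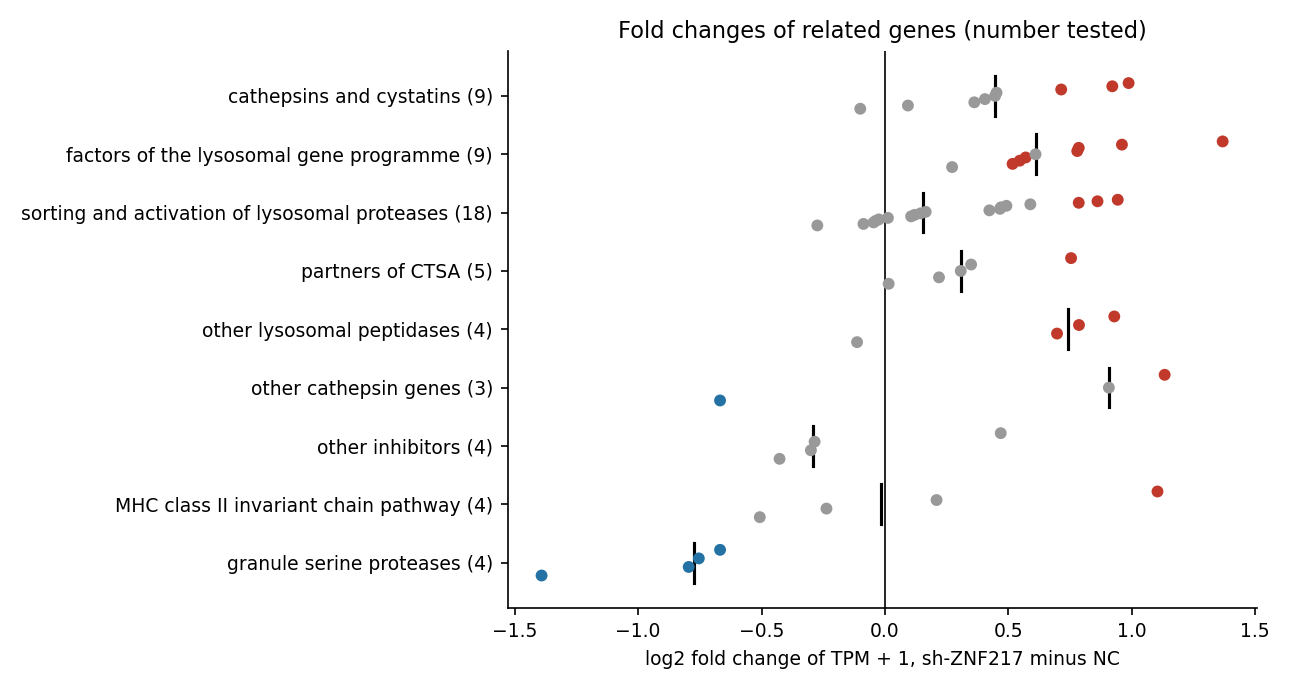
Log2 fold change of TPM + 1, sh-ZNF217-labelled libraries minus NC, for the tested genes of 9 groups, with red for called higher, blue for called lower, grey for not called and a bar at the median. The 9 cathepsins and cystatins have a median of 0.45, the regulators of the lysosomal programme 0.61, and the 4 granule serine proteases, all called lower, -0.77.

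Of 13 tested genes of monocyte identity 7 rose, 0 fell and 6 did not pass. Those that did not pass, named after their values were seen, were SPI1, CD4, CD33, CD14, FCGR1A and CEBPA, with log2 fold changes of 0.12, 0.22, 0.06, 0.83, 0.39 and -0.20. Those that rose included LYZ, lysozyme, with 5511 and 5328 TPM in the sh-ZNF217-labelled libraries against 3270.2 and 3256 TPM in NC, and ITGAM, an integrin of maturing myeloid cells, with 43.1 and 43.0 TPM in the sh-ZNF217-labelled libraries against 16.0 and 15.9 TPM in NC. PTPRC and CSF1R rose by a log2 of 0.61 and 0.79, PTPRC losing its call without sh-ZNF217 replicate 1 (limma adjusted p = 0.0557) or with plain empirical Bayes (0.0608), and CSF1R without sh-ZNF217 replicate 1 (0.0635) or 2 (0.0718). The list summed to 7252 and 7149 TPM in the sh-ZNF217-labelled libraries and to 4681 and 4704 TPM in NC, most of it LYZ. The part of this list in the levels of the cathepsins was not tested. Among markers of other cells, 3 of 12 for T and NK cells had a row and summed to 102 and 113 TPM in the sh-ZNF217-labelled libraries against 87.1 and 70.1 TPM in NC, nearly all of it NKG7, and 4 of 8 for B cells summed to 11.2 and 9.59 TPM in the sh-ZNF217-labelled libraries against 12.5 and 6.96 TPM in NC. CD2 and CD22 were called higher and PAX5 lower, each at 5.33 TPM or below in every library, and each lost its call in at least 3 of the 4 fits without 1 library (CD2 all but that without NC replicate 2), with limma adjusted p from 0.0549 to 0.173 where it was lost. CD2 also lost it with plain empirical Bayes (0.0614), CD22 with the replicate block (0.0504), and PAX5 with the block (0.0771) or no filter (0.0541). Of 11 epithelial and fibroblast markers only PDGFRB had a row, at 0.777 to 1.40 TPM, and of 11 erythroid and megakaryocyte markers 0 had one.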

How the data were processed

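Total RNA of U937 cells was extracted with Trizol and sequenced after Illumina TruSeq preparation. Per the labels and the study's methods, the authors filtered reads, aligned them with HISAT2 2.0.5 to hg38 and quantified genes. They call the measure FPM. Quantifier, annotation and strand use are not given in the sources here. Values were read as TPM, deposited by the authors as a table whose columns sum to 998932 to 999282 without a common step among low values. A column went to its sample by its group word (NC, ZNF) and replicate number. GENCODE 44 named 16143 of 17656 identifiers.

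Genes with at least 1 TPM in 2 libraries were kept. Values as log2(TPM + 1), which understates changes of low genes, entered a fit in R 4.3.3 with limma 3.58.1 (group alone, trended and robust empirical Bayes). The contrast was sh-ZNF217 minus NC, and p-values were adjusted by Benjamini-Hochberg over 14582 genes. Ratios are of mean TPM. The fit was tested on simulated data. Alternatives were a pseudocount of 0.1, no filter and a filter of 5 TPM, median-of-ratios scaling, totals without mitochondrially encoded or without non-coding genes, plain empirical Bayes, a replicate block and each library left out.

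Members and lists were chosen with earlier results of these data known, so no list was tested. All members were named, and from each of 13 other lists up to 4 called genes with the smallest p, or else the most abundant one. Planned protein searches were not run. Figures used matplotlib 3.10.9 in Python 3.11.15.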

Additional observations from a re-analysis of the deposited data

How the results depend on the processing

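CTSS, CTSD and CTSA were called higher under all 12 alternatives, with log2 fold changes of 0.93 to 1.04, 0.89 to 0.96 and 0.68 to 0.75. CTSC, CST3, CSTB, CTSZ and CTSH were called under none, and 0 of the 36 genes followed through the alternatives reversed. Most genes named after their values were seen, such as NEU1 and M6PR, were not among the 36. CTSB was called only without sh-ZNF217 replicate 2. Over all genes, 913 were called higher and 359 lower. Plain empirical Bayes gave 560 and 163, and leaving out 1 library gave 294 to 712 and 129 to 317, with 3 or 4 members called. With the replicate number as a replicate block, 749 and 300 genes and the same 3 members were called. The replicate differences of the 2 groups had a correlation of -0.00534 over 14582 genes. Such a value cannot tell whether libraries of the same number were handled together, since a shared effect could be small against technical spread. The depth is unknown, and with 2 libraries in a group no exact permutation test could reach 0.05.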
